A study of Mus musculus with 6 samples.

Results

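The genes described here are 40 genes of G2 phase and mitosis, named by function: the mitotic cyclins and the kinase and phosphatases that work with them, the kinases and motors of the spindle, the chromosomal passenger complex, kinetochore and spindle checkpoint proteins, partners of the anaphase-promoting complex, condensin, and the proliferation marks Mki67 and Top2a. They were measured in CD8+ T cells of mice on Affymetrix mouse expression arrays, which carry sets of short oligonucleotide probes near the 3' ends of transcripts. Of the 40 genes, 39 had a probe set that the platform annotation gives to that gene alone, as did 18193 genes in all. The cyclin gene Ccnb1 had none and was not analysed here. The probe set with the highest mean signal stands for its gene. A probe set below the median of its own array is called dim here, and a gene was tested where it was not dim on at least 2 of the 6 arrays. This left 38 of the 39 genes, among 10838 genes tested. Cdc25c, a phosphatase that removes inhibitory phosphates from Cdk1, was dim on all 6 arrays, with signals of 6.32, 53.0 and 19.2 in the Nrdp1-/- cells and 26.6, 31.4 and 7.19 in the Nrdp1+/+ cells (untreated, 4 h and 8 h). No gene passed only through 1 time or only through 1 genotype, and 28 genes were dim on no array.

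The cells were naive CD8+ T cells of the spleen, from Nrdp1-/- and Nrdp1+/+ mice of the strain written C57/BL6. Nrdp1 is another name of Rnf41, which encodes a ubiquitin ligase. Cells of each genotype were stimulated for 4 h or 8 h, or left untreated, with 1 array for each genotype and time; stimulation was with antibody to CD3 fixed to a surface at 5 µg/ml, with soluble antibody to CD28 at 1 µg/ml. The sample characteristics name only the antibody to CD28, and the labels give neither the mice's age, how the Nrdp1-/- allele was made, nor how many mice gave each RNA or whether arrays share animals.

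Genes of G2 and mitosis are transcribed late in each cell cycle. In quiescent cells, which include naive T cells, they are held down by the DREAM complex, and in dividing cells they are switched on by B-Myb with the MuvB core and by FoxM1. Many of their promoters carry a cell cycle genes homology region, known as CHR, that binds the MuvB core, and CCAAT boxes that bind NF-Y. After a naive T cell meets its antigen, growth and passage through G1 come before the first S phase and mitosis.

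Those promoter elements are shown first, since the rule that chose the genes did not use sequence. RefSeq promoter windows on GRCm38.p6, running from 250 bases before to 50 bases after a transcription start, were matched for 33 of the genes, Ccnb1 included, and gave 35 windows of 300 bases. The CHR core TTTGAA was searched on both strands and lay in 26 of the 35 windows (74.3%), against 17.9% of all 32851 windows. The CCAAT box, also searched on both strands, lay in 31 of the 35 windows (88.6%), against 37.4% of all windows. The E2F sites TTTGGCGC and TTTCCCGC were each found in 1 window (2.9%), against 0.5% and 1.1% of all windows. Matches of different motifs overlapped in 1 places in these windows. A match is a stretch of letters and not a measured binding site. The following sequences are the 150 bases just before the start, on the coding strand, of 3 genes that fell on stimulation and of 2 that did not pass the test. Capitals mark TTTGAA or CCAAT on either strand, so that TTCAAA and ATTGG are the same elements read on the opposite strand.
Prc1, chr7:80294326-80294475 (+): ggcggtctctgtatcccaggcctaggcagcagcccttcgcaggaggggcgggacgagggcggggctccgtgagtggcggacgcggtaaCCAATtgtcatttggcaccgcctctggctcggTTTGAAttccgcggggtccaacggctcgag
Mki67, chr7:135716380-135716529 (-): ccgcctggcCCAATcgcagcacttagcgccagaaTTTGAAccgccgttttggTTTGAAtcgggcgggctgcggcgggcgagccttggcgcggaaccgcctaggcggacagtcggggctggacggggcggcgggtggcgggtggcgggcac
Ncapd2, chr6:125191587-125191736 (-): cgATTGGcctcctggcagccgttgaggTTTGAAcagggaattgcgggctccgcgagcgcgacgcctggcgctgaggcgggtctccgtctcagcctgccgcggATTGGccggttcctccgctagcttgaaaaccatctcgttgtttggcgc
Cdk1, chr10:69352913-69353062 (-): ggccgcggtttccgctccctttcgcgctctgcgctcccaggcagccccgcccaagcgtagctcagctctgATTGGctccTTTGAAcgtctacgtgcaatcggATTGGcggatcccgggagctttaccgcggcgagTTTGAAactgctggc
Top2a, chr11:99024190-99024339 (-): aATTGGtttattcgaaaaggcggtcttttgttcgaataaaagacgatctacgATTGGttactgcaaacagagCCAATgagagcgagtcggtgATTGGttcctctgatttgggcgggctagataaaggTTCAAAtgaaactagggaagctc
In Prc1 the CHR core began 30 bases and the CCAAT box 62 bases before this start. Mki67 had CHR cores 116 and 98 bases before its start, Ncapd2 had 1 at 123 bases, Cdk1 had them at 71 and 15 bases, and the nearest of Top2a lay at 23 bases. In Kif23, Cenpa and Plk1 the core lay 3, 17 and 31 bases after the start, outside the stretch shown for the others. Of the 10 genes that fell at either time, all had a window, and 6 held TTTGAA and 9 held CCAAT. Of the other 23 genes with a window, 18 held TTTGAA and 20 held CCAAT.

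**Figure D1:**
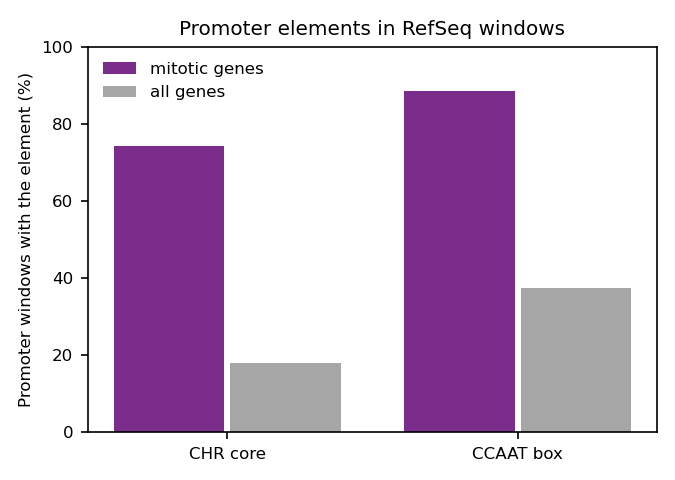
Share of promoter windows (percent, vertical axis from 0) that hold each element, for the windows of the G2 and mitosis genes and for all RefSeq windows. TTTGAA lay in 74.3% of the 35 windows against 17.9% of all 32851, and CCAAT in 88.6% against 37.4%.

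The deposited signals had a common trimmed mean of 500 on each array, and array medians were 61.5 to 68.6. That scaling was read from the values, since the labels do not state a target. All 6 measured markers of CD8 T cells were above the median on every array, with a summed signal of 59356 to 71499. The labels' RNA extraction text names colon, against the sample titles. Of 7 markers of colon epithelium, Muc2, Krt20, Vil1 and Cdx2 were dim on all 6 arrays and Krt8 and Cdh1 on 5. Epcam was dim on none, with 241, 185 and 173 in Nrdp1-/- cells and 529, 406 and 341 in Nrdp1+/+ cells (untreated, 4 h and 8 h), and was lower in Nrdp1-/- cells by a log2 difference of -1.06 ± 0.149 (adjusted p = 0.00141). In Nrdp1-/- cells the brightest probe set of Rnf41 read 528, 437 and 477, and in Nrdp1+/+ cells 728, 505 and 639 (untreated, 4 h and 8 h). A dimmer probe set read 54.5, 70.9 and 83.7 in Nrdp1-/- cells and 181, 166 and 161 in Nrdp1+/+ cells. Both were lower in Nrdp1-/- cells at each time and the other 2 were not at every time. The labels do not say what part of the gene the allele removes. Markers of other cells differed between arrays. The summed signal of 11 mature myeloid markers was 12313, 8538 and 3095 in Nrdp1-/- cells and 1739, 2043 and 1938 in Nrdp1+/+ cells, and that of 8 granulocyte precursor markers was 2992, 1381 and 613.8 in Nrdp1-/- cells and 587.2, 406.1 and 392.9 in Nrdp1+/+ cells. The untreated Nrdp1-/- array was thus the highest for both lists.

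Some of the G2 and mitosis genes were lower after stimulation, and none rose past the test. At 4 h, 6 of the 38 genes fell and 0 rose, and at 8 h 8 fell and 0 rose. The genes that fell at both times were Kif23, Plk1 and Prc1, whose proteins build or regulate the central spindle, and Cdc25b, a phosphatase that activates Cdk1. Nek2 and Ncapd2 fell at 4 h only by this threshold, and Mki67, Birc5, Cenpa and Cenpi at 8 h only; their 8 h and 4 h values were not shown to differ. The tests used limma on log2(signal + 4.45) over all 6 arrays, with time and genotype as terms, so that each time is the mean of 1 Nrdp1-/- and 1 Nrdp1+/+ array. Adjusted p-values are Benjamini-Hochberg values over 10838 genes, with a threshold of 0.05, and errors after ± are limma's standard errors. Both times are set against the same untreated arrays.

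At 4 h, 15.8% of the genes fell, against 5.51% of all genes tested, while 8.01% of all genes rose. At 8 h, 21.1% of them fell, against 9.26% of all genes, while 9.88% of all genes rose. Since the genes were chosen with earlier results of these data known, these shares are a description and not a test. The median log2 change of the 38 genes was -0.26 at 4 h and -0.33 at 8 h, against -0.05 and -0.07 over all genes. At an unadjusted p under 0.05, 13 of the 38 genes were lower at 4 h and 14 at 8 h, and 0 were higher at either time. Of all genes, 14.3% were lower and 13.3% higher at 4 h, and 18.1% lower and 14.3% higher at 8 h. The share lower was thus larger among the 38 genes at both times. Without the untreated Nrdp1-/- array 2 genes fell at 4 h and 2 at 8 h, and of all genes 217 fell at 4 h, against 597 with it, and 349 fell at 8 h, against 1004 with it. Without any 1 of the arrays, Kif23 passed at both times and Cdc25b at 4 h, while each other call was lost without at least 1 array. Without the 8 h Nrdp1-/- array 1 gene, Kif23, fell at 8 h, which is 2.63% of the 38 genes against 3.62% of all genes, so the higher share of these genes at 8 h was not seen without that array. Without the 4 h Nrdp1+/+ array, which leaves 1 array at 4 h, fewer of these genes and fewer of all genes passed as lower at 4 h. The median log2 change of the 38 genes there was -0.311, against -0.0258 over all genes. Without an intensity trend in limma's variance, 0 of the 38 genes passed at either time, and of all genes 4 fell at 4 h and 5 at 8 h. In whole-population RNA, fewer cells in G2 or mitosis and less of these transcripts per cell cannot be told apart.

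**Figure D2:**
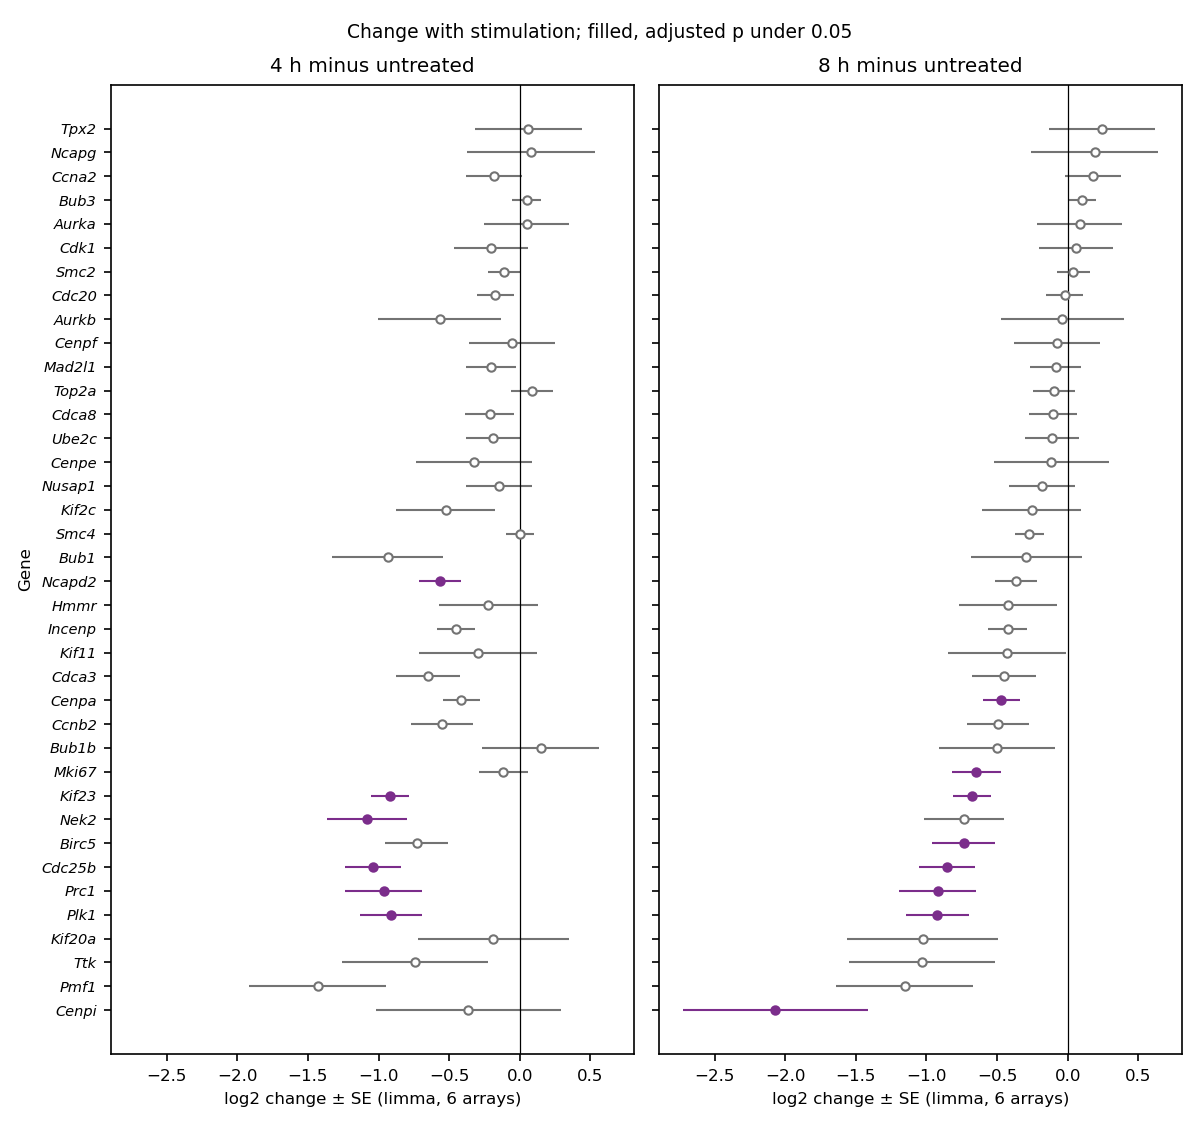
Log2 change with limma's standard error of each of the 38 genes after 4 h and 8 h against untreated cells (horizontal axis), over 2 arrays a time; filled points passed an adjusted p of 0.05. The filled points all lie left of 0, 6 at 4 h and 8 at 8 h.

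On single arrays most of the genes were below untreated cells in 3 of the 4 differences, and about as many as of all genes in the 1 of Nrdp1+/+ cells at 8 h. In Nrdp1-/- cells 31 of the 38 genes were below the untreated array at 4 h (81.6%, against 53.9% of all genes) and 32 at 8 h (84.2%, against 56.9%), with median log2 differences of -0.40 and -0.45. In Nrdp1+/+ cells 30 were below at 4 h (78.9%, against 56.0% of all genes) and 21 at 8 h (55.3%, against 55.7%), with medians of -0.22 and -0.16. The medians of all genes were -0.03 and -0.07 in Nrdp1-/- cells and -0.05 in Nrdp1+/+ cells at both times. These differences each rest on 1 array against 1 and have no test. The genes below untreated in all 4 differences were Ccnb2, Birc5, Plk1, Cenpa, Cenpi, Kif23, Kif2c, Ttk, Nek2, Prc1, Cdc25b, Cdca3, Incenp, Ncapd2 and Hmmr, which is 15 genes, and 30.4% of all genes tested did the same. Tpx2, the activator of Aurora A at the spindle, was the 1 gene above untreated in all 4, as were 21.2% of all genes.

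Mki67 encodes the Ki-67 protein that coats mitotic chromosomes and is used to mark cycling cells. Its signal was 622, 642 and 365 in Nrdp1-/- cells (untreated, 4 h and 8 h, in that order throughout) and 410.4, 338 and 283 in Nrdp1+/+ cells. Both 8 h arrays were below the untreated array of their genotype, and the Nrdp1-/- array was above the Nrdp1+/+ array at every time. The log2 change was -0.65 ± 0.173 at 8 h (adjusted p = 0.0241) and -0.12 ± 0.173 at 4 h (adjusted p = 0.729). Top2a, the topoisomerase that untangles replicated DNA, read 866, 928 and 697 in Nrdp1-/- cells and 636, 666 and 691 in Nrdp1+/+ cells, with log2 changes of 0.08 at 4 h and -0.10 at 8 h that did not pass.

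Among the cyclins, Cdk1 and its phosphatases, 1 of 4 tested genes fell at each time. Cdc25b read 3874, 2288 and 1747 in Nrdp1-/- cells and 5005, 2008 and 3381 in Nrdp1+/+ cells. All 4 stimulated arrays were below both untreated arrays. The log2 change was -1.04 ± 0.199 at 4 h (adjusted p = 0.0058) and -0.86 ± 0.199 at 8 h (adjusted p = 0.0128). Cdk1, the kinase that drives entry into mitosis, read 205, 179 and 187 in Nrdp1-/- cells and 134, 115 and 161 in Nrdp1+/+ cells, and its log2 changes of -0.20 ± 0.261 and 0.06 ± 0.261 did not pass. Its partner Ccna2 read 269.9, 246 and 290.1 in Nrdp1-/- cells and 233, 198 and 280.1 in Nrdp1+/+ cells, a log2 change of 0.18 ± 0.197 at 8 h (adjusted p = 0.571). A further Ccna2 probe set, dim on no array, read 237, 227 and 177 in Nrdp1-/- cells and 264, 176 and 156 in Nrdp1+/+ cells. Tested on its own it gave -0.32 at 4 h and -0.58 at 8 h, the other direction at 8 h, and neither passed the test. Ccnb2, a B-type cyclin, read 341, 245 and 205 in Nrdp1-/- cells and 278, 178 and 230.1 in Nrdp1+/+ cells, with log2 changes of -0.55 ± 0.22 at 4 h (adjusted p = 0.131) and -0.50 ± 0.22 at 8 h (adjusted p = 0.144).

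The kinases, motors and bundling proteins of the spindle were the largest group, and 4 of its 12 genes were lower at 4 h and 3 at 8 h. Kif23, the kinesin of the centralspindlin complex, read 705, 362 and 442 in Nrdp1-/- cells and 1057, 569 and 654 in Nrdp1+/+ cells. Every stimulated array was below the untreated array of its genotype, and every Nrdp1-/- array was below the Nrdp1+/+ array of its time. The log2 change was -0.92 ± 0.135 at 4 h (adjusted p = 0.00114), and it was -0.68 ± 0.135 at 8 h (adjusted p = 0.0059). Both calls are of the brightest probe set and were lost with the mean over the gene's probe sets, which gave -0.11 at 4 h (adjusted p = 0.895) and 0.05 at 8 h (adjusted p = 0.952). That mean takes in a set dim on all 6 arrays, with 2.36, 3.4 and 4.67 in Nrdp1-/- cells and 0.67, 22.5 and 21.2 in Nrdp1+/+ cells. A further Kif23 probe set, tested on its own, gave -0.72 at 4 h and -0.55 at 8 h, neither past the test.

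Plk1, the kinase that matures centrosomes and promotes mitotic entry, read 336, 178 and 152 in Nrdp1-/- cells and 329.7, 172 and 198 in Nrdp1+/+ cells. All 4 stimulated arrays lay below both untreated arrays. The log2 change was -0.91 ± 0.222 at 4 h (adjusted p = 0.02) and -0.92 ± 0.222 at 8 h (adjusted p = 0.0151). Prc1, which cross-links antiparallel microtubules between the separating chromosomes, read 326, 184 and 142 in Nrdp1-/- cells and 209, 93.7 and 129 in Nrdp1+/+ cells. All 4 stimulated arrays were below both untreated arrays, with log2 changes of -0.96 ± 0.274 at 4 h (adjusted p = 0.0401) and -0.92 ± 0.274 at 8 h (adjusted p = 0.038). A further Prc1 probe set, tested on its own, gave -0.57 at 4 h and 0.29 at 8 h. Nek2, a kinase that separates centrosomes, read 188, 69.3 and 82.9 in Nrdp1-/- cells and 321, 186 and 255 in Nrdp1+/+ cells. Its log2 change was -1.08 ± 0.282 at 4 h (adjusted p = 0.0279) and -0.74 ± 0.282 at 8 h (adjusted p = 0.0944), and the Nrdp1-/- array was the lower at each time.

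The other spindle genes did not pass at either time. Aurka, the Aurora kinase of centrosomes, read 119, 138 and 145 in Nrdp1-/- cells and 128, 119 and 118 in Nrdp1+/+ cells, and Tpx2 read 85.9, 91.5 and 96.6 in Nrdp1-/- cells and 79.6, 81.6 and 101 in Nrdp1+/+ cells. The arrays of different times overlapped for Aurka. Both 8 h arrays of Tpx2 were above its other 4, with a log2 change of 0.24 ± 0.378 (adjusted p = 0.703). Ttk, a checkpoint kinase, read 106, 65.3 and 41.2 in Nrdp1-/- cells and 80.8, 43.9 and 45.0 in Nrdp1+/+ cells. Kif20a, a motor of the central spindle, read 98.8, 66.5 and 42.2 in Nrdp1-/- cells and 60.2, 68.2 and 30.1 in Nrdp1+/+ cells. Both were dim on both 8 h arrays, so their values there are bounds only, at least 1.36-fold lower for Ttk and at least 1.15-fold lower for Kif20a, with neither past the test (adjusted p = 0.194 and 0.214). Kif11, which pushes spindle poles apart, had a log2 change of -0.43 ± 0.418 at 8 h, Kif2c, which shortens microtubules, -0.26 ± 0.352, Nusap1, a microtubule-binding protein, -0.18 ± 0.231, and Hmmr, another, -0.42 ± 0.348.

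In the chromosomal passenger complex, which corrects faulty attachments of chromosomes, 0 of 4 genes fell at 4 h and 1 at 8 h. Birc5, known as survivin, read 326, 227 and 199 in Nrdp1-/- cells and 275, 140.2 and 159 in Nrdp1+/+ cells. All 4 stimulated arrays were below both untreated arrays. The log2 change was -0.73 ± 0.224 at 4 h (adjusted p = 0.0535) and -0.74 ± 0.224 at 8 h (adjusted p = 0.0409). Incenp, the scaffold of the complex, lay just outside the threshold at both times, with 2285, 1379 and 1518 in Nrdp1-/- cells and 1844, 1635 and 1537 in Nrdp1+/+ cells and adjusted p-values of 0.051 and 0.0504. Aurkb, its kinase, read 96.6, 81.1 and 78.5 in Nrdp1-/- cells and 92.7, 47.8 and 108 in Nrdp1+/+ cells, and Cdca8, known as borealin, read 487, 370.0 and 401 in Nrdp1-/- cells and 331, 323 and 348 in Nrdp1+/+ cells. Neither passed at either time.

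Among 9 kinetochore and checkpoint genes, 0 fell at 4 h and 2 at 8 h. Cenpa, the histone variant that marks centromeres, read 1725, 1284 and 1070.4 in Nrdp1-/- cells and 2083, 1569 and 1745 in Nrdp1+/+ cells. Each stimulated array was below the untreated array of its genotype. Its log2 change was -0.42 ± 0.131 at 4 h (adjusted p = 0.0594) and -0.47 ± 0.131 at 8 h (adjusted p = 0.0288). Cenpi, a member of the protein network that sits on centromeres through the cell cycle, read 118, 103 and 10.2 in Nrdp1-/- cells and 88.8, 59.6 and 39.99 in Nrdp1+/+ cells. Both 8 h arrays were dim, so its fall was at least 1.5-fold (adjusted p = 0.0478), a call lost with quantile normalization and with a pseudocount of 1. Bub1, Bub1b, Bub3 and Mad2l1 are proteins of the checkpoint that delays anaphase. Bub3 read 4856, 5436 and 5372 in Nrdp1-/- cells and 5211, 4976 and 5420.5 in Nrdp1+/+ cells, with a log2 change of 0.10 ± 0.101 at 8 h. Mad2l1 read 1321, 868 and 955 in Nrdp1-/- cells and 1018, 1163 and 1248 in Nrdp1+/+ cells, lower after stimulation in Nrdp1-/- cells and higher in Nrdp1+/+ cells, on 1 array each. Bub1 read 185, 83.5 and 110.4 in Nrdp1-/- cells and 80.8, 45.7 and 89.2 in Nrdp1+/+ cells, with a log2 change of -0.94 ± 0.392 at 4 h (adjusted p = 0.149). Bub1b read 90.0, 147 and 107 in Nrdp1-/- cells and 137, 103 and 55.5 in Nrdp1+/+ cells. Cenpe, a kinetochore motor, and Cenpf, a kinetochore protein, had log2 changes of -0.12 ± 0.409 and -0.08 ± 0.304 at 8 h.

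None of the 3 partners of the anaphase-promoting complex passed the test, and 1 of 4 condensin genes fell at 4 h. Cdc20, the activator of the anaphase-promoting complex, read 1008, 831 and 873 in Nrdp1-/- cells and 836, 797 and 935 in Nrdp1+/+ cells. Ube2c, the ubiquitin-conjugating enzyme of that complex, read 382, 337 and 309 in Nrdp1-/- cells and 256, 222 and 270.2 in Nrdp1+/+ cells. Cdca3, which triggers mitotic entry, read 248, 161 and 175 in Nrdp1-/- cells and 249, 152 and 186 in Nrdp1+/+ cells, and its stimulated arrays were all below the untreated ones, with an adjusted p of 0.0858 at 4 h. In condensin, which compacts chromosomes, Ncapd2 fell at 4 h, with 636, 477 and 486 in Nrdp1-/- cells and 749, 454 and 586 in Nrdp1+/+ cells and a log2 change of -0.56 ± 0.149 (adjusted p = 0.0289). At 8 h its value was -0.37 ± 0.149 (adjusted p = 0.11). The core subunits Smc2 and Smc4 had log2 changes of -0.11 ± 0.117 and 0.00 ± 0.0998 at 4 h, and Ncapg one of 0.08 ± 0.45. Smc4 was bright throughout, at 21189.5, 20059 and 15901 in Nrdp1-/- cells and 22095, 23321 and 20227 in Nrdp1+/+ cells.

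**Figure D3:**
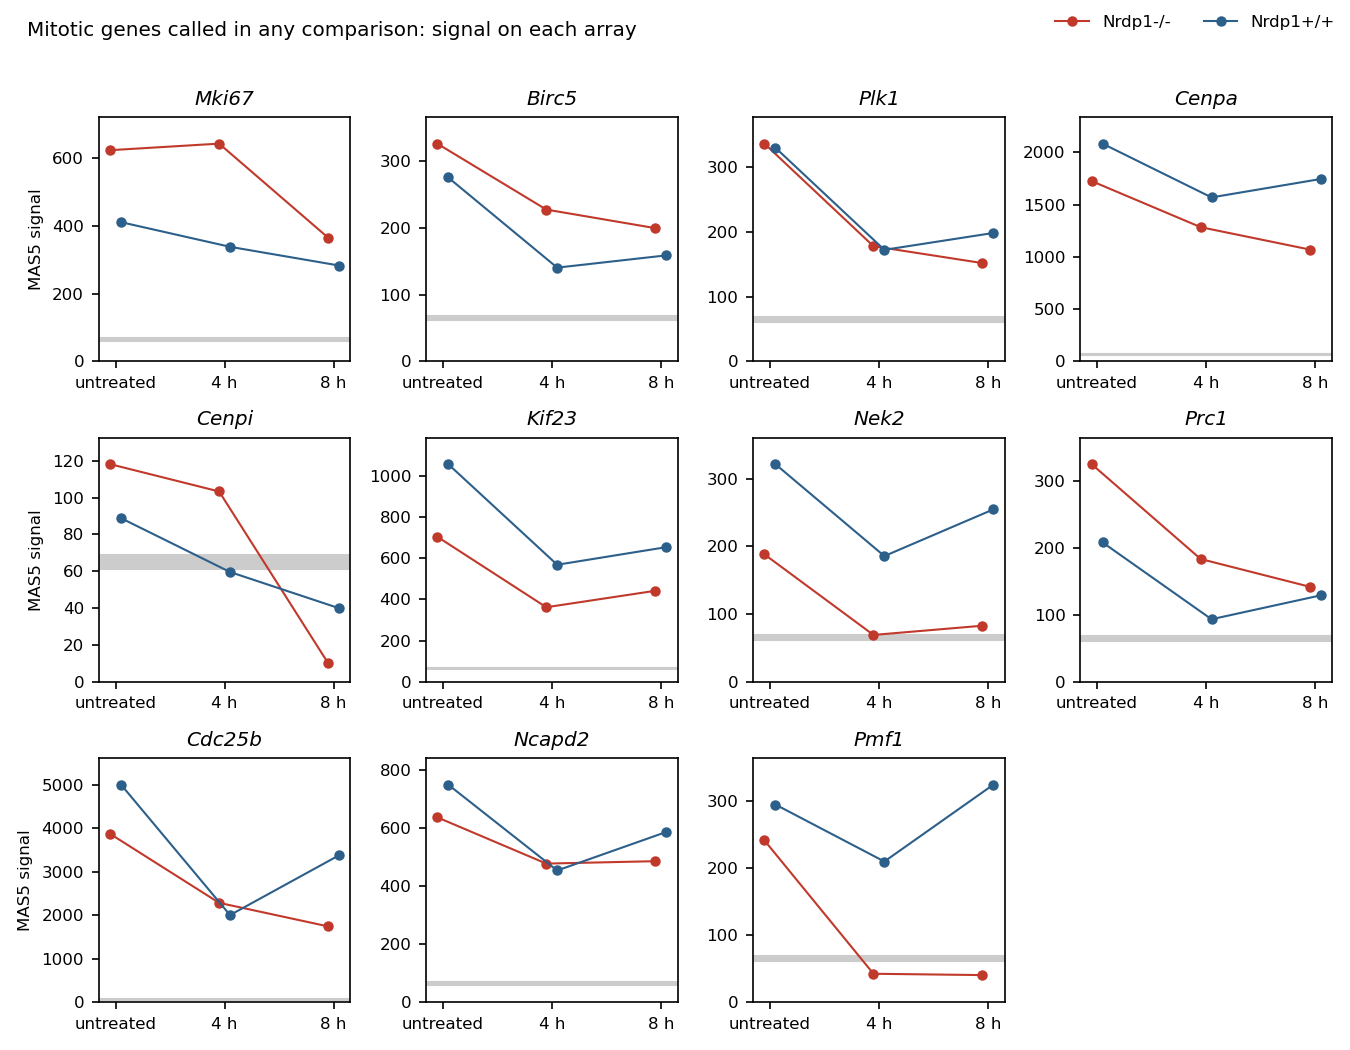
Deposited signal on each of the 6 arrays (vertical axis, linear scale) by time after stimulation (horizontal axis) for the genes that passed the test in any comparison of time or genotype. Nrdp1-/- is in red and Nrdp1+/+ in blue, 1 array a point, with the range of array medians in grey. Cdc25b and Plk1 lie lower on all 4 stimulated arrays than on both untreated ones, and Pmf1 lies below the grey band on the 2 stimulated Nrdp1-/- arrays.

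None of the 38 genes passed in the comparison of 8 h with 4 h, in which the lowest adjusted p was 0.419, and 0.0185% of all genes rose and 0.0277% fell. At an unadjusted p under 0.05, 0 of the genes were higher and 3 lower, against 3.47% and 4.9% of all genes. The median log2 difference of the 38 genes was 0.07, against -0.01 over all genes.

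Other genes of the same processes were taken from lists of known function. Among 35 tested genes of a further list of 40 mitotic genes, 1 rose and 4 fell at 4 h, and 2 rose and 2 fell at 8 h. Of all genes tested, 8.01% rose and 5.51% fell at 4 h, and 9.88% rose and 9.26% fell at 8 h. The share of this list that fell at 8 h was thus not above that of all genes. Its median log2 change was -0.348 at 4 h and -0.219 at 8 h, against -0.0491 and -0.067 over all genes. Kif22, a chromosome-bound kinesin, fell at both times, with log2 changes of -1.03 ± 0.153 (adjusted p = 0.00124) and -0.77 ± 0.153 (adjusted p = 0.00575). Its signal was 1444, 604 and 681 in Nrdp1-/- cells and 1386, 789 and 1003 in Nrdp1+/+ cells. Racgap1, the partner of Kif23 in centralspindlin, and Ect2, the exchange factor that they recruit for cytokinesis, fell at 4 h, with log2 changes of -0.50 ± 0.127 and -1.16 ± 0.31, as did the kinetochore gene Ndc80, with -0.73 ± 0.182. Cks2, which binds cyclin-dependent kinases, rose at both times, with 2202, 2791 and 3641 in Nrdp1-/- cells and 1559, 2389 and 3222 in Nrdp1+/+ cells and log2 changes of 0.48 ± 0.114 and 0.88 ± 0.114. Its relative Cks1b rose at 8 h by 0.65 ± 0.137. Fbxo5, an inhibitor of the anaphase-promoting complex, fell at 8 h, with a log2 change of -0.74 ± 0.178.

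Of 22 tested regulators of mitotic transcription, Rbl1, a pocket protein of DREAM, and Cdkn1a, the inhibitor p21, rose at both times and Rb1 fell at both. Cdkn1a read 137, 539.6 and 489.5 in Nrdp1-/- cells and 82.8, 244 and 277 in Nrdp1+/+ cells, with log2 changes of 1.72 ± 0.208 and 1.74 ± 0.208. Foxm1 had log2 changes of -0.22 ± 0.352 and -0.09 ± 0.352 that did not pass, and Mybl2, which encodes B-Myb, was dim on 5 arrays and not tested. None of the 13 core subunits of the anaphase-promoting complex passed at either time. Among 8 cohesin genes, Stag2 and the loader Nipbl fell at 8 h. Of 20 genes of G1 and S phase, 3 rose and 1 fell at 4 h, and 5 rose and 1 fell at 8 h. Cdk6, Ccnd2 and Cdk4, which act in G1, rose at both times, with log2 changes of 1.03 and 1.49, 0.97 and 1.08, and 0.49 and 0.68. The replication genes Mcm5 and Pcna rose at 8 h. Ccne1 fell at 4 h and Ccnd3 at 8 h.

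Between genotypes, 1 of the 38 genes was higher and 4 were lower in Nrdp1-/- cells. Mki67 was the gene that was higher, and Kif23, Nek2, Pmf1 and Cenpa were lower. These counts are 2.63% and 10.5% of the 38 genes, against 2.47% of all genes higher and 2.57% lower. The genes were chosen with earlier results of these data known, so these shares describe the list and do not test it. The median log2 difference of Nrdp1-/- minus Nrdp1+/+ cells was 0.12 over the 38 genes and -0.01 over all genes. At an unadjusted p under 0.05, 8 of the 38 genes were higher and 6 lower, both larger shares than the 7.9% and 8.63% of all genes. The difference is the mean over the 3 times, with 3 arrays a genotype.

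Mki67 was higher in Nrdp1-/- cells by 0.63 ± 0.141 on the log2 scale (adjusted p = 0.0269). Without the 4 h array of either genotype it did not pass. Kif23 was lower by a log2 difference of -0.60 ± 0.11 (adjusted p = 0.00889), and so was Nek2 by -1.23 ± 0.23 (adjusted p = 0.00941). For both, the Nrdp1-/- array was the lower at all 3 times. Both calls were lost with the mean over a gene's probe sets, which for both genes takes in sets dim on all 6 arrays. Cenpa had a difference of -0.42 ± 0.107 (adjusted p = 0.0476), and its call was lost without either 8 h array, with quantile normalization and with median centring. A further Cenpa probe set, tested on its own, differed by -1.01 ± 0.14 (adjusted p = 0.00273). Pmf1, a subunit of the kinetochore's MIS12 complex, read 242, 42.7 and 40.8 in Nrdp1-/- cells and 295, 210.1 and 325 in Nrdp1+/+ cells, a difference of -1.78 ± 0.396 (adjusted p = 0.025). Its Nrdp1-/- arrays at 4 h and 8 h were dim, its probe set carries the suffix of sets that may match other transcripts too, and its call was lost without the 4 h Nrdp1+/+ array.

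Whether past the test or not, 13 of the 38 genes were above Nrdp1+/+ at all 3 times, a larger share than the 17.4% of all genes. Below at all 3 times were 5 of the 38, a smaller share than the 20.2% of all genes. The 13, by their brightest probe sets, were Mki67, Top2a, Ccna2, Cdk1, Bub1, Birc5, Cenpe, Cenpf, Kif2c, Prc1, Ube2c, Cdca8 and Smc2. Further probe sets of Top2a, Ccna2 and Smc2 that were dim on no array were below Nrdp1+/+ without stimulation. Ube2c had a log2 difference of 0.45 ± 0.156 (adjusted p = 0.155), Cdk1 of 0.47 ± 0.213 (adjusted p = 0.296) and Bub1 of 0.75 ± 0.32 (adjusted p = 0.266). On single arrays, 27 of the 38 genes were above Nrdp1+/+ without stimulation, 28 after 4 h and 17 after 8 h, with median log2 differences of 0.28, 0.17 and -0.04. These are 71.1%, 73.7% and 44.7% of the genes, against 47.4%, 51.3% and 46.0% of all genes, whose medians were -0.02, 0.01 and -0.03, so the 8 h share was near that of all genes. The 5 below at all 3 times were Cenpa, Kif23, Nek2, Smc4 and Pmf1.

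**Figure D4:**
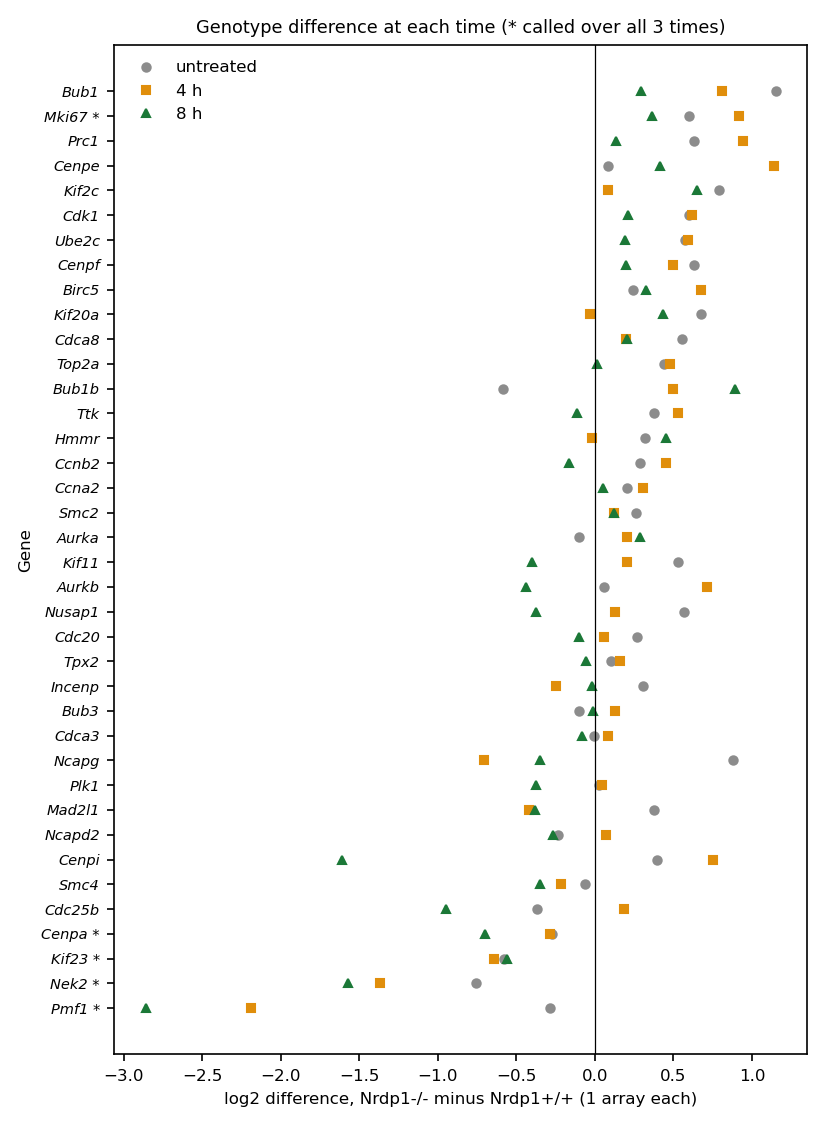
Log2 difference of Nrdp1-/- minus Nrdp1+/+ (horizontal axis) for each of the 38 genes, in rows, each point from 1 array against 1. Grey circles are untreated cells, orange squares 4 h and green triangles 8 h, with an asterisk at genes that passed the test of genotype. Mki67 lies right of 0 at all 3 times, and Kif23, Nek2, Cenpa and Pmf1 lie left of 0 at all 3.

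Markers of other cells moved with genotype and with time beside these values. Of 8 tested B cell markers 7 were lower in Nrdp1-/- cells, with a summed signal over 9 markers of 2432 to 2783 against 12594 to 14456 in Nrdp1+/+ cells. Of 5 tested granulocyte precursor markers 3 were higher in Nrdp1-/- cells, Mpo, Prtn3 and Ctsg, and of 9 tested mature myeloid markers 5 were higher, Lyz1 and Lyz2 among them. Of 9 genes that mark memory-like CD8 T cells, all above the array median on every array, 7 were higher, with sums of 35410 to 38505 in Nrdp1-/- cells and 24828 to 27226 in Nrdp1+/+ cells. At 8 h, Mpo and Prtn3 and 4 of the myeloid markers were lower than in untreated cells, as were 3 of 5 plasma cell markers. The plasma cell markers summed to 22381, 16669 and 15050 in Nrdp1-/- cells and 11949, 10454 and 10340 in Nrdp1+/+ cells, so the untreated array was the highest in both genotypes. Jchain was the larger part of each Nrdp1-/- sum, with 14015, 10429 and 9001, against 3948, 3767 and 2739 in Nrdp1+/+ cells. The list did not move 1 way by genotype. Jchain and Xbp1 were higher in Nrdp1-/- cells, and Mzb1 was lower by a log2 difference of -1.88 ± 0.136 (adjusted p = 9.15e-06). Tnfrsf17 was dim on all 6 arrays. Of 11 erythroid markers 5 were tested. Hba-a1, Alas2, Rhag, Slc4a1 and Hemgn were dim on all 6 arrays, and Klf1 was dim on 5. All 5 tested were positive by genotype and 1 passed: Car1, dim in Nrdp1+/+ cells, was at least 2.71-fold higher in Nrdp1-/- cells (adjusted p = 0.00304). Tfrc, the transferrin receptor, rose at 4 h and 8 h, with log2 changes of 1.07 ± 0.104 and 1.28 ± 0.104. The erythroid markers summed to 3458, 6119 and 6709 in Nrdp1-/- cells and 3048, 5122 and 6001 in Nrdp1+/+ cells. Tfrc was the larger part of each sum, with 1952, 4347 and 5158 in Nrdp1-/- cells and 1938, 3867 and 4359 in Nrdp1+/+ cells. The rise of the sums is thus largely that of Tfrc. The part of these cells in the values of the G2 and mitosis genes was not tested.

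Whether the response to stimulation differed by genotype was tested with an interaction term over the 2 stimulated times, with 1 residual degree of freedom. In this fit limma put the variance trend on intensity in place of each gene's own variance. Its errors and p-values thus do not measure a gene's own spread. Of the 38 genes 0 had a higher and 1 a lower response in Nrdp1-/- cells, against 0.0923% and 0.129% of all genes. The gene was Pmf1, with an interaction of -2.24 ± 0.578 on the log2 scale (adjusted p = 0.0475), which was past the threshold in 1 of 8 other settings. Both stimulated Nrdp1-/- arrays were dim, so the size of this difference is fitted from signals below the array median and is not a measured fold. At an unadjusted p under 0.05 there were 0 higher and 2 lower genes, against 1.68% and 2.07% of all genes. The median interaction was -0.18 over the 38 genes and 0.00 over all genes.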

How the data were processed

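The deposited values are signal intensities on a linear scale, made by the authors with MAS5, per the submitters' processing notes, which give no version. A common scaling of each array hides a shift of most transcripts. Detection calls were not used. Here log2(signal + 4.45) was fitted in R 4.3.3 by limma 3.58.1, using eBayes with a variance trend on intensity. The pseudocount 4.45 was the 10th percentile over the table. The fit held time and genotype over 6 arrays, with 2 residual degrees of freedom. With 1 array for each genotype and time, the spread behind the p-values of this fit is how the genotype difference varied over the times. It may be technical, since the labels name no animals. Spread between mice or between repeat arrays was not measured. The fit was also run on simulated data, with independent noise drawn from its own variance estimates. Those data met the fit's assumptions by construction, so they cannot test them. The number of arrays limits the precision. Of 45037 probe sets without array controls, 34945 had 1 symbol, 932 had several and 9160 were unnamed. Alternatives were another scaling, pseudocount, filter, probe set rule or variance model, and leaving out each array. Genes named are all members, then up to 4 genes with the largest change past the threshold in each other list, and all of them where a count was 5 or fewer. The members and lists were chosen with earlier results of these data known.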

Additional observations from a re-analysis of the deposited data

Results flagged for a closer look

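Pmf1 differed between genotypes in its response to stimulation. The response in Nrdp1-/- cells minus that in Nrdp1+/+ cells was -2.24 ± 0.578 on the log2 scale (limma's standard error, adjusted p = 0.0475), in a test of the difference itself. Its signal was 242, 42.7 and 40.8 in Nrdp1-/- cells and 295, 210.1 and 325 in Nrdp1+/+ cells (untreated, 4 h and 8 h). Both stimulated Nrdp1-/- signals were dim, that is, below their array's median, so the size of the difference is a fitted value and not a measured fold. The standard error comes from the variance trend on intensity and not from the spread of Pmf1 itself. Over 8 alternatives the value ran from -2.40 to -1.85 and the adjusted p from 0.04 to 1, and 7 of them lost the call. The probe set is of a kind that may match other transcripts, and the gene's other probe set was dim on all 6 arrays. The part of either fact in the difference was not tested.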

How the results depend on the processing

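The count of genes lower at 4 h, 6 in the fit described, was 3 without the filter on dim probe sets, 3 with probe sets of a gene averaged and 0 without the intensity trend, and it ran from 2 to 10 when each array was left out. The count lower at 8 h, 8, was 5 without the filter, 5 with the mean of probe sets, 0 without the trend, and 1 to 10 without each array. No gene was higher at either time in any of these settings. Without the filter 7.69% of the genes fell at 4 h and 12.8% at 8 h, against 2.45% and 4.2% of all genes. With the mean of probe sets the shares were 7.89% and 13.2%, against 2.79% and 4.01%. With each array left out, the genes' median log2 change ran from -0.512 to -0.17 at 4 h, against -0.0587 to -0.0258 over all genes. At 8 h it ran from -0.473 to -0.137, against -0.0741 to -0.0456. For genotype, the 1 higher gene became 0 without the filter and without the trend, and 0 to 1 without each array. The 4 lower genes became 2 with a 70th percentile filter, which left 15 of the 38 genes and took Nek2 and Pmf1 out of the test, 0 with the mean of probe sets, 0 without the trend, and 3 to 5 without each array. The 1 interaction became 0 with quantile normalization, median centring, the 30th percentile as pseudocount, no filter, the mean of probe sets, no trend, or the spread of the additive fit. It was also 0 with the 70th percentile filter and, added after the data were seen, with the brightest set without the _x suffix, both of which take Pmf1 out of the test. It could not be fitted with an array left out. Kif23 at 8 h turned to 0.04996 with the mean of its probe sets (adjusted p = 0.952), which takes in a set dim on all 6 arrays. The causes were not tested. Dim signals limit Cenpi, Ttk, Kif20a, Cdc25c and Pmf1. With each probe set tested alone, added after the data were seen, 4 of the genes' 65 sets fell at 4 h and 5 at 8 h. These tests ran over 23968 probe sets, and the share of those that fell was not counted. The fit holds genotype as a term, so times are compared within genotype.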
